A study of Procambarus virginalis with 6 samples.

Results

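The features described here are the 100 that were detected most widely in the hemocytes of all 6 animals. They were chosen by a rule on detection: for every feature, the percent of filtered cells with at least 1 UMI (unique molecular identifier, the tag that marks 1 captured transcript) was taken in each library, and the 100 features with the highest lowest value of the 6 were kept. They are 100 of 72982 features in the deposited matrices and of 36576 that had a UMI in a filtered cell. The values of detection therefore describe the choice and are given without a test.

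Hemocytes were collected from the hemolymph of marbled crayfish (*Procambarus virginalis*), an all-female species that reproduces as a clone. Double-stranded RNA was injected into the hemolymph, directed against GFP, which the animal does not have, in 3 controls (Ctrl1 to Ctrl3) and against *Dnmt1* in 3 knockdown animals (KD1 to KD3), and hemolymph was taken 28 dpi. Each animal gave 1 droplet library of the 10X Genomics platform. The dsRNA was given to the animal and not to hemocytes alone. The strength of the knockdown in these cells and the markers of hemocytes were not analysed here, because the features carry identifiers that the sources used here do not pair with gene names.

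Hemocytes are the circulating blood cells of crustaceans. They take up and encapsulate microbes, help to clot the hemolymph and release the enzymes of melanization, and granular cells store many of these defence proteins in granules. Dnmt1 is the maintenance DNA methyltransferase, which copies CpG methylation onto the new strand after replication. In animal cells the transcripts found in nearly every cell commonly encode proteins of translation, energy metabolism and the cytoskeleton. Which of the 100 features belong to such classes is not stated here, and they are named by identifier, which gives an assembly contig, a feature number and in many cases the suffix covsplit.

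Cells with 100 to 2000 detected features were kept, between 622 and 5318 per library (11521 in all), and no cell exceeded the upper limit. Median depth ranged from 223 UMIs per cell in KD2 to 1258 in KD1. The libraries were not alike. Ctrl1 shared no cell barcode with any other library and KD3 shared 1, whereas 13 cells of Ctrl2, 120 of Ctrl3 (19.3% of its cells), 115 of KD1 (13.1%) and 215 of KD2 (33.9%) carried a barcode that was also in another library. Most of these were shared between KD2 and Ctrl3 (113) and between KD2 and KD1 (110). Ctrl1 and KD3 also had the largest numbers of cells, and results are therefore given within and without them where they move. For the difference in share between KD and control animals and for the calls between groups and between deeper and shallower cells, results without the cells that carry a shared barcode are also given. The list of features and its ranks rest on all filtered cells.

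Detection started near saturation and fell quickly along the ranks. WNGS01001312.121569_1_covsplit ranked first, with a UMI in 98.8% of the cells of Ctrl1, 99.8% of Ctrl2, 98.1% of Ctrl3, 100% of KD1, 91.5% of KD2 and 95.1% of KD3. It was missing most often in KD2 (exact Clopper-Pearson 95% interval of the KD2 value 89.0% to 93.5%, counting error only). The lowest percentages of the features at ranks 2 to 5 were 89.0%, 84.4%, 82.5% and 79.7% (WNGS01165318.2284534_0_covsplit, WNGS01167840.2551657_1_covsplit, WNGS01021282.680231_0_covsplit and WNGS01163813.2084876). At ranks 6 to 10 they were 75.3%, 72.5%, 72.3%, 68.5% and 66.6% (WNGS01169498.2636754_1_covsplit, WNGS01001312.118487_1_covsplit, WNGS01165318.2284441_4_covsplit, WNGS01111181.1401971 and WNGS01092210.1257801).

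The limit of the list was not a break. The 3 features just inside it had lowest percentages of 19.6% (WNGS01164858.2246007_1_covsplit), 19.4% (WNGS01092210.1251734_1_covsplit) and 19.2% (WNGS01107777.1366523_0_covsplit). The 3 just outside it had 18.4% (WNGS01003388.239059_2_covsplit), 18.3% (WNGS01169217.2609422_0_covsplit) and 18.3% (WNGS01063839.1044306_2_covsplit). The exact 95% interval of the last feature inside was 16.2% to 22.5% over the 635 cells of KD2, so the order at the limit was within counting error.

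**Figure D1:**
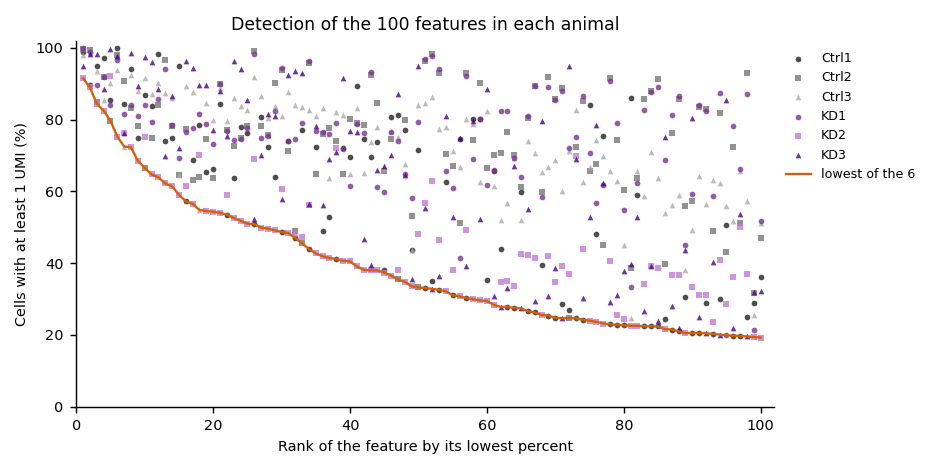
Percent of filtered cells with at least 1 UMI (vertical axis) for each of the 100 features, ordered by their rank (horizontal axis), with 1 point per animal and a line at the lowest of the 6 values, which set the rank. The line falls from 91.5% to 19.2%, and most of the points on it belong to KD2 or Ctrl1.

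A pair of shallow libraries set most of the ranks. The lowest of the 6 values was that of KD2 for 52 of the 100 features and that of Ctrl1 for 32, against 7 for KD3, 6 for Ctrl2, 2 for Ctrl3 and 1 for KD1. KD2 and Ctrl1 also had the lowest medians of UMIs per cell (223 and 281). The median of the 100 detection values was 55.4% for Ctrl1, 76.1% for Ctrl2, 73.9% for Ctrl3, 78.3% for KD1, 41.1% for KD2 and 69.1% for KD3. After every cell was thinned to 150 UMIs at random, a step that dropped 40 cells from Ctrl1 and 65 from KD2, the medians were 37.6%, 29.1%, 33.8%, 30.9%, 28.8% and 29.3% in the same order. At equal depth the medians thus lay within 8.81 percentage points of each other, and Ctrl1, low before thinning, had the highest.

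Few of the features were present in practically every cell. Over 90% of cells held a UMI of 7 of the features for Ctrl1, 20 for Ctrl2, 9 for Ctrl3, 14 for KD1, 2 for KD2 and 18 for KD3. The features found in over 50% of cells numbered 54, 88, 94, 95, 33 and 67. A typical cell held 54, 78, 74, 80, 44 and 63 of the 100 features (medians), and no filtered cell held fewer than 18.

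The members were also most of what was captured. The 100 features made up 69.3% of the UMIs of Ctrl1, 54.7% of Ctrl2, 55.5% of Ctrl3, 50.3% of KD1, 55.3% of KD2 and 73.9% of KD3. Ctrl1 and KD3 thus stood above the other 4 libraries, 1 in each group. With 188578 to 2413375 UMIs per library the exact 95% intervals of these shares were at most 0.449 percentage points wide, and they cover the counting of UMIs only, not the spread between animals. The next 100 features of the same ranking held between 8.83% and 11.1%. Of the 100 features, 89 were also among the 100 with the largest mean share of UMIs.

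Much of the share rested on a handful of features. WNGS01163813.2084876 and WNGS01169498.2636754_1_covsplit had the largest mean shares, 7.78% and 7.17% of UMIs, followed by WNGS01001312.121569_1_covsplit (4.10%), WNGS01001312.118487_1_covsplit (2.33%) and WNGS01021282.680231_0_covsplit (2.02%). The first 2 together took 10.4% of the UMIs of Ctrl1, 13.0% of Ctrl2, 13.1% of Ctrl3, 10.4% of KD1, 14.3% of KD2 and 28.4% of KD3. Without them the other 98 features held 58.9%, 41.6%, 42.5%, 39.8%, 41.0% and 45.5%. KD3 was then close to the other KD animals, and Ctrl1 was still highest.

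**Figure D2:**
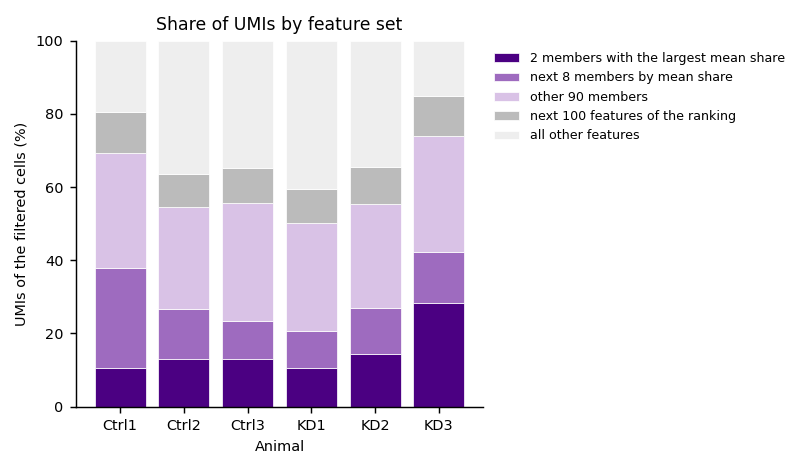
Percent of the UMIs of the filtered cells (vertical axis) in each animal (horizontal axis), stacked by set of features: the 2 members with the largest mean share, the next 8, the other 90, the next 100 features of the ranking and all other features. The 100 members, the purple parts, reach from 50.3% in KD1 to 73.9% in KD3, and the 2 largest reach 28.4% in KD3 against at most 14.3% elsewhere.

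Single cells followed their library. The median cell had 66.5% of its UMIs in the 100 features for Ctrl1, 52.4% for Ctrl2, 56.2% for Ctrl3, 49.0% for KD1, 51.8% for KD2 and 74.1% for KD3. The cell at the 10th percentile had 26.8% to 61.9%, and the lowest cell of all had 17.3%. Barcodes with under 100 features, which were left out, had more of their UMIs in these features than the kept cells: 77.7% against 69.3% in Ctrl1 (2760 barcodes), 73.6% against 55.3% in KD2 (364 barcodes) and 82.6% against 73.9% in KD3 (139 barcodes). This holds for the sum of the 100 and not for the typical feature. The median log2 ratio of the members to the kept cells was -0.465 in Ctrl1, -0.588 in KD2 and -1.71 in KD3. A barcode with few features is by construction one whose UMIs fall on few features, and the part of RNA free in the suspension in the detection of these features was not tested.

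Identifiers with the suffix covsplit were 87 of the 100, against 76.0% of all features and 75.2% of those with a UMI in a filtered cell. The 100 features lay on 49 contigs. On 23 contigs there were 2 or more of them, which accounts for 74 features, and WNGS01164858 held 7, WNGS01135237 and WNGS01113158 held 6 each and WNGS01001312 held 5. WNGS01164858 carries 2163 features and WNGS01001312 carries 2498, so a contig in common does not place features next to each other. A single pair, WNGS01135237.1643429 and WNGS01135237.1643429_4_covsplit, had the same contig and feature number. Reads of related features can be split between them in the counting, and the counts do not show to what extent.

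Features found in all animals still differed in level between them. Levels are given as UMIs per 10000 UMIs of the animal, so a lower level can mean fewer cells with the transcript or fewer transcripts per cell. Between the highest and the lowest of the 6 animals the ratio was 1.38 for the steadiest feature, 3.68 at the median and 31.8 for the most variable one. It was under 2 for 15 features, over 4 for 44 and over 10 for 7. The SD of the log2 level over the 6 animals ranged from 0.177 to 1.69, with a median of 0.730.

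The features with the smallest spread were not the most abundant ones. WNGS01005680.407942_4_covsplit had 45.9, 45.0 and 57.4 UMIs per 10000 for Ctrl1, Ctrl2 and Ctrl3, and 46.1, 54.2 and 41.6 for KD1, KD2 and KD3. WNGS01164858.2247954_0_covsplit had 45.7, 34.8 and 38.6 for the controls and 38.7, 30.9 and 33.5 for the KD animals. Neither feature separated the groups, and Ctrl3 was highest for the one and Ctrl1 for the other. WNGS01162923.2006708_20_covsplit, WNGS01135237.1643429_4_covsplit and WNGS01135237.1639939_1_covsplit followed, with an SD of 0.21 to 0.22 on the log2 scale.

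At the other end, WNGS01135237.1639636_1_covsplit had 9.35, 2.17 and 20.9 UMIs per 10000 for the controls and 27.9, 20.4 and 68.9 for the KD animals. Ctrl2 was lowest and KD3 highest, and the groups overlapped only through Ctrl3 and KD2. WNGS01033470.778221_4_covsplit had 41.8, 3.46 and 52.4 for the controls and 43.3, 29.9 and 96.9 for the KD animals, again with Ctrl2 lowest and KD3 highest. WNGS01163002.2013978_2_covsplit was lowest in KD1, at 1.60, and highest in KD3, at 33.1. In contrast, WNGS01164858.2237323_2_covsplit had 67.0 in Ctrl2 and 63.9 in KD1 but 13.2 in Ctrl1 and 5.88 in KD3. WNGS01009631.589317_2_covsplit had 59.0 in Ctrl1 and 4.27 in Ctrl2. In each of these 5 features the controls alone differed by 4.16-fold or more.

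The most abundant features varied as well. WNGS01163813.2084876 had 201, 410 and 657 UMIs per 10000 for Ctrl1, Ctrl2 and Ctrl3, and 357, 1100 and 1943 for KD1, KD2 and KD3. KD1 lay among the controls and the other KD animals above them. For WNGS01169498.2636754_1_covsplit the values were 842, 892 and 649 for the controls and 688, 330 and 899 for the KD animals, with KD2 lowest. WNGS01001312.121569_1_covsplit, first in detection, had 909, 333 and 216 for the controls and 236, 254 and 509 for the KD animals, so that Ctrl1 and KD3 were highest. WNGS01021282.680231_0_covsplit had 567 in Ctrl1 and between 76.8 and 165 in the other 5 animals.

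Ctrl1 and KD3, the libraries that share next to no barcodes with the rest, were compared with the other 4 after the data had been seen. Both were above each of the other 4 libraries for 7 of the 100 features, against 1.27% of the 7024 features tested between groups. Both were below each of them for 32 of the 100, against 59.2% of all tested features. The first share was above its background and the second below it, which is a description with no test. Since UMIs per 10000 add up to a fixed total, the larger share of the 100 features in these libraries and the lower levels of the remaining features follow from the same numbers.

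**Figure D3:**
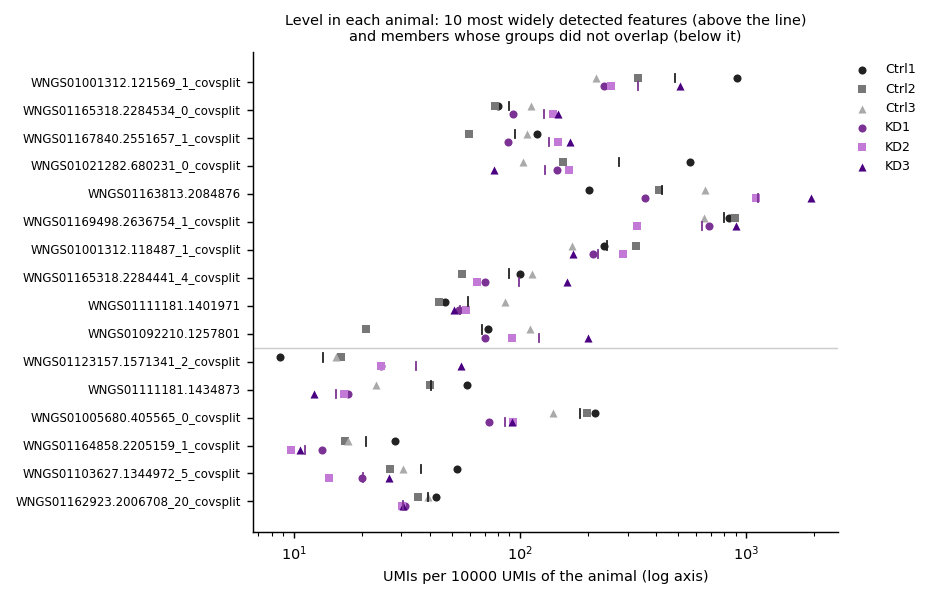
Level of 16 members in each animal, in UMIs per 10000 UMIs of the animal (horizontal log axis), for the 10 most widely detected features (above the grey line) and the 6 whose groups did not overlap (below it), with 1 point per animal and a short line at each group mean. WNGS01163813.2084876 runs from 201 in Ctrl1 to 1943 in KD3, while WNGS01111181.1401971 stays between 43.8 and 86.3.

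Whether the Dnmt1 KD moved these features was tested on UMI counts summed per animal over all filtered cells (edgeR quasi-likelihood test, Benjamini-Hochberg adjustment over 7024 features). The 100 features as a group had the same share of UMIs in both groups of animals, 59.8% ± 8.23 for the controls and 59.8% ± 12.5 for the KD animals (SD, n = 3 each), with a difference of -0.0373 percentage points. The animals overlapped throughout, since Ctrl1 and KD3 were high and the other 4 animals lay between 50.3% and 55.5%. The difference was -2.34 percentage points within Ctrl2, Ctrl3, KD1 and KD2, 4.57 between KD3 and Ctrl1 alone, -7.09 without KD3 and -0.631 without cells that carry a shared barcode.

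None of the 100 features passed the threshold (adjusted p under 0.05), and neither did any other feature (0% of 7024), with or without the cells that carry a shared barcode. At an unadjusted p under 0.05 the count was 0 of the 100, against 1.71% of all tested features, and the lowest unadjusted p of a member was 0.0624. DESeq2 called 0 features as well and placed 4 of the 100 under an unadjusted p of 0.05. Of all 36576 features in that fit, which were not filtered for low counts, 257 were under it. Log2 fold changes of the members (KD against control) ran from -1.78 to 2.41 with a median of -0.12, beside a median of -0.04 over all tested features, and 37 were above 0 and 63 below. Their median SE was 0.89, against 0.70 over all tested features, so that changes of the size seen were within the spread between animals. That none passed does not show that the levels were equal.

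The fitted median of the members moved with the animal left out. It was 0.51 without Ctrl1 and -0.74 without KD3, the highest and the lowest of 19 alternatives. These fits use TMM, a scaling that lines up the bulk of the features. With all animals its factors were 0.490 for Ctrl1, 0.431 for KD3 and 1.39 to 1.63 for the others. With plain library size in place of TMM the median over all animals was -0.07. The part of the scaling in these shifts was not tested. Between KD3 and Ctrl1 alone the median log2 ratio of levels was -0.45, with 37 features higher in KD3, and within the other 4 libraries it was 0.02, with 53 higher in the KD animals. With the set of libraries (Ctrl1 and KD3 against the rest) as a term, a fit added after seeing the data, 0 features passed (0% of all) and 3 of the 100 had an unadjusted p under 0.05, against 2.31% of all tested features.

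A few features had all KD animals on one side of all controls. All 3 KD animals were above all 3 controls for 1 of the 100, against 0.812% of the tested features. They were below all 3 controls for 5 of the 100, against 1.72%. The next 100 features of the ranking gave 1 and 8.

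WNGS01123157.1571341_2_covsplit was the one above, with 8.71, 16.2 and 15.4 UMIs per 10000 for Ctrl1, Ctrl2 and Ctrl3, and 24.3, 24.4 and 55.1 for KD1, KD2 and KD3. KD3 stood apart from the other KD animals. The log2 fold change was 1.99 (SE 0.96, unadjusted p of 0.0624, adjusted p of 0.9997 in edgeR), and over the alternatives it lay between 0.27 and 2.43. The adjusted p was 0.796 or more in the edgeR alternatives, and DESeq2 gave none for this feature.

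Of the 5 below, WNGS01111181.1434873 had the largest difference, with 58.4, 40.2 and 23.2 for the controls and 17.3, 16.7 and 12.3 for the KD animals. The KD animals were close to each other and the controls were spread out. Its log2 fold change was -1.67 (SE 0.92, edgeR unadjusted p of 0.0979), and -2.29 to -0.37 over the alternatives. WNGS01005680.405565_0_covsplit, an abundant feature, had 216, 198 and 140 for the controls and 73.4, 93.0 and 92.6 for the KD animals. The gap between the groups, from 93.0 to 140, was wider than the range of the KD animals, with a log2 fold change of -1.05 (SE 1.04, edgeR adjusted p of 0.9997). Over the alternatives it ran from -2.03 without KD3 to -0.11 without Ctrl1, both on the TMM scale.

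The other 3 had narrower gaps. WNGS01164858.2205159_1_covsplit had 28.1, 16.9 and 17.4 for the controls and 13.3, 9.76 and 10.6 for the KD animals, a log2 fold change of -1.03. WNGS01103627.1344972_5_covsplit had 52.8, 26.8 and 30.6 against 20.1, 14.3 and 26.5, a log2 fold change of -0.82, and Ctrl2 and KD3 all but touched. WNGS01162923.2006708_20_covsplit, among the steadiest of all features, had 42.6, 35.5 and 39.3 against 31.0, 30.3 and 30.4. Its log2 fold change was -0.33, and the fitted values of these 3 features turned positive without Ctrl1 (0.14, 0.48 and 0.50).

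**Figure D4:**
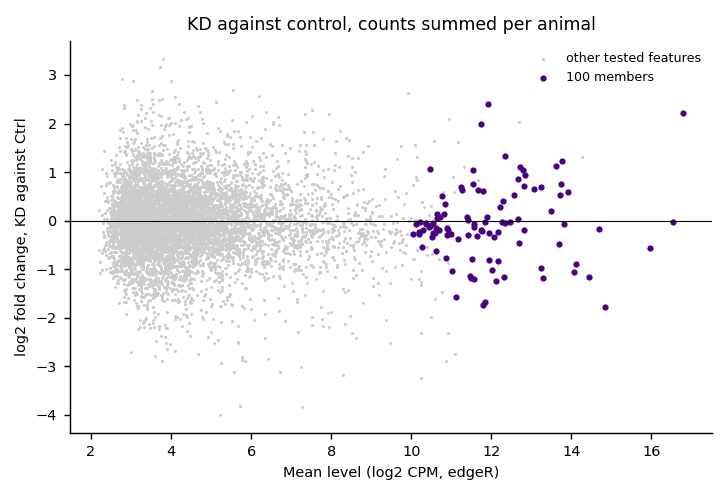
Log2 fold change between KD and control animals (vertical axis) against mean level (log2 CPM as edgeR gives it, horizontal axis) for the 7024 tested features, with the 100 members in purple. The members lie at the right, at the highest levels, and spread from -1.78 to 2.41 with a median of -0.12.

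More of the features passed the threshold between deeper and shallower cells of the same animals than between KD and control animals. The tests are unlike in precision, since the depth test compares cells within each library. The median SE of the members was 0.18 between depths and 0.89 between groups, on the log2 scale. The counts passing therefore do not rank depth against knockdown. The cells of each library were split at its median UMIs per cell, and the shallower and deeper cells had medians of 224 and 368 UMIs in Ctrl1, 790 and 1852 in Ctrl2, 525 and 1121 in Ctrl3, 800 and 1909 in KD1, 173 and 329 in KD2 and 442 and 952 in KD3. The share of UMIs in the 100 features was higher in the deeper cells of all 6 libraries. It was 62.9% in the shallower and 72.4% in the deeper cells of Ctrl1, 48.5% and 56.9% in Ctrl2, 51.8% and 57.0% in Ctrl3, 44.8% and 52.3% in KD1, 47.6% and 58.6% in KD2 and 71.9% and 74.6% in KD3. The mean difference was 7.37 percentage points ± 3.01 (SD, n = 6).

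The direction depended on how depth was defined. With the upper and lower tertile of UMIs the mean difference was 10.6 percentage points. When cells were split by their number of detected features instead, the share was lower in the deeper cells of all 6 libraries, with a mean difference of -5.77 percentage points. When they were split by the UMIs outside the 100 features, a choice made after seeing the data, the mean difference was -2.20 percentage points, with values from -7.80 in Ctrl3 to 0.207 in KD2. The UMIs of the 100 features themselves count towards the depth of a cell, so the first split places cells rich in them among the deeper ones. The split by UMIs outside them in turn places cells rich in the other features there. Both splits are thus tied to the share they compare, and the part of this in the directions was not tested.

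**Figure D5:**
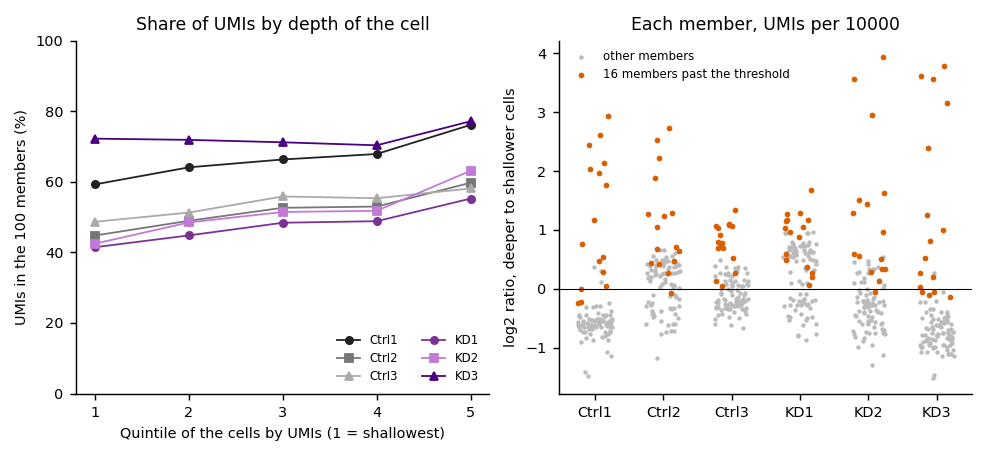
Left, percent of UMIs in the 100 members (vertical axis) for quintiles of the cells of each animal by UMIs per cell (horizontal axis), and right, log2 ratio of each member's UMIs per 10000 between the deeper and the shallower cells of each animal, with the 16 members past the threshold in orange. The share of Ctrl1 runs from 59.3% to 76.1% over the quintiles, and in Ctrl1 and KD3 most grey points are below 0 while orange ones reach past 2.

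Between deeper and shallower cells a minority of the features passed the threshold. Of the 100, 16 were higher in the deeper cells (edgeR quasi-likelihood test with the library as a block, adjusted p under 0.05), against 2.98% of 5377 tested features, and 0 were lower, against 1.93%. Of the 16, 9 were higher in all 6 libraries, 5 in 5 libraries and 2 in 4. The next 100 features of the ranking gave 14 higher and 2 lower. The median log2 fold change of the 100 was 0.21, beside -0.05 over all tested features.

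The split of higher and lower calls rested on the scaling. With TMM, which lines up the bulk of the features, 160 of all tested features were higher and 104 lower. With plain library size 83 were higher and 871 lower, and of the 100 features 10 were higher, all of them among the 16, and 19 lower. The medians then were -0.20 for the 100 and -0.41 for all tested features. Without KD3, 32 of the 100 were higher, against 242 of 4785 tested features. Without cells that carry a shared barcode 18 of the 100 were higher and 0 lower, against 163 and 42 of 5787 tested features.

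WNGS01092210.1251734_1_covsplit had the largest change with depth. Its level was 11.8 UMIs per 10000 in the shallower and 90.1 in the deeper cells of Ctrl1, 21.8 and 101.5 in Ctrl2, 25.9 and 48.7 in Ctrl3, 18.6 and 45.1 in KD1, 8.09 and 125 in KD2 and 12.8 and 151 in KD3. It was higher in the deeper cells of every library, most of all in KD2 and KD3. The log2 fold change was 2.83 (SE 0.27, adjusted p of 6.48e-14 in edgeR).

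WNGS01163947.2108035_1_covsplit had 79.6 and 351 in the shallower and deeper cells of Ctrl1, 25.5 and 171 in Ctrl2, 35.0 and 73.2 in Ctrl3, 34.1 and 82.0 in KD1, 9.15 and 108 in KD2 and 11.0 and 152 in KD3. Ctrl1 was highest in the shallower and in the deeper cells. The log2 fold change was 2.78 (SE 0.27, adjusted p of 1.58e-13 in edgeR). A second feature of that contig, WNGS01163947.2107960, was also among the 16, with a log2 fold change of 1.69.

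For WNGS01163813.2084876, which has the largest mean share, the shallower and deeper cells had 76.9 and 262 in Ctrl1, 91.0 and 526 in Ctrl2, 312 and 791 in Ctrl3, 190 and 420 in KD1, 192 and 1492 in KD2 and 209 and 2578 in KD3. The shallower cells of KD2 and KD3 lay within the range of the controls, and their deeper cells far above it. The log2 fold change between deeper and shallower cells was 2.61 (SE 0.30, adjusted p of 1.15e-10 in edgeR).

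WNGS01005680.405565_0_covsplit, 1 of the 5 features that were lower in all KD animals, had a log2 fold change with depth of 1.94 (SE 0.22). WNGS01001312.121569_1_covsplit had 1.88 (SE 0.29), with 205 and 1249 UMIs per 10000 in the shallower and deeper cells of Ctrl1 and 75.0 and 668 in those of KD3, but 183 and 257 in those of KD1. Both were past the threshold and higher in the deeper cells of all 6 libraries. All 5 of these features were also past the threshold when cells were split by UMIs outside the 100 features, with log2 fold changes of 0.76 to 1.90. When cells were split by the number of features, 0 of them were past it as higher, and WNGS01163813.2084876 (-1.05) and WNGS01163947.2108035_1_covsplit (-0.74) were past it as lower. Whether these features passed, and for some of them the direction, thus depended on whether depth was taken as UMIs or as features.

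The other 84 features did not pass the threshold. By their levels per 10000 UMIs, 24 were lower in the deeper cells of all 6 libraries, and the median log2 ratio of the 100 was -0.54 for Ctrl1, 0.26 for Ctrl2, -0.07 for Ctrl3, 0.49 for KD1, -0.24 for KD2 and -0.70 for KD3. WNGS01169498.2636754_1_covsplit, second in mean share, was among the 24. It had 942 in the shallower and 794 in the deeper cells of Ctrl1, 1279 and 751 in Ctrl2, 824 and 580 in Ctrl3, 989 and 573 in KD1, 476 and 266 in KD2 and 1713 and 601 in KD3. With TMM its log2 fold change was -0.39 (SE 0.26), which did not pass the threshold (adjusted p of 0.428 in edgeR).

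Without the 2 features of largest mean share, the deeper cells exceeded the shallower by 9.13 percentage points (Ctrl1), 9.30 (Ctrl2), 2.80 (Ctrl3), 9.34 (KD1) and 0.0649 (KD2), and lay below them in KD3 (-9.87). KD3 was the only library in which the direction turned without them.

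Whether the change with depth differed between control and KD animals was tested as an interaction. It passed the threshold for 0 of the 100 and for 0% of 4510 tested features, and at an unadjusted p under 0.05 for 0 of the 100, against 1.69% of all. DESeq2 was not run for this test. The interaction of the members ranged from -0.49 to 0.98 on the log2 scale with a median SE of 0.38.

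How evenly a feature was spread over cells was described by its detection against the percent of cells that would hold a UMI if every cell had the library's mean level (a Poisson count at the depth of each cell). The ratio of observed to expected detection, averaged over the libraries, was 0.90 at the median of the 100 and over 0.9 for 51 features. It was between 0.9 and 1.1 in all 6 libraries for 21. WNGS01160430.1872578_0_covsplit lay between 0.953 and 1.01 in the 6 libraries, and WNGS01142304.1694906_4_covsplit between 0.976 and 1.05. Such features were found in about as many cells as an even level gives. A ratio between 0.9 and 1.1 does not by itself show an even level. Between the clusters of Ctrl1 described below, levels differed up to 7.61-fold for WNGS01160430.1872578_0_covsplit and 4.39-fold for WNGS01142304.1694906_4_covsplit. They differed up to 23.1-fold for WNGS01001312.121569_1_covsplit, whose mean ratio was 0.973. The median ratio of the next 100 features of the ranking was 0.94.

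For 9 features the mean ratio was under 0.7. The lowest, 0.283, was that of WNGS01092210.1251734_1_covsplit, which had a UMI in 28.9%, 31.5% and 25.6% of the cells of Ctrl1, Ctrl2 and Ctrl3 and in 21.3%, 19.4% and 31.8% of those of KD1, KD2 and KD3, where an even level would give 83.2%, 99.8%, 93.7%, 97.0%, 86.3% and 99.6%. In every animal a minority of the cells held its UMIs. WNGS01163947.2108035_1_covsplit followed with 0.418, but was found in 86.1% of the cells of Ctrl1 and in 22.5% to 39.6% of those of the other animals. WNGS01107777.1366523_0_covsplit (0.629), WNGS01021324.680489_28_covsplit (0.629) and WNGS01135237.1643429_4_covsplit (0.659) were next. The first 2 of the 9 were also those with the largest change with depth.

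The clusters of Ctrl1, the library with the most cells, show how these features are spread over cells of 1 animal. Its 5318 cells, clustered on 2000 variable features with the settings of the study, formed 4 clusters of 4086, 553, 448 and 231 cells, numbered 0 to 3. Of the 100 features, 20 were among these 2000. The values below describe 1 animal and the cells that were clustered, and have no test. The 100 features held 67.7% of the UMIs of cluster 0, 48.9% of cluster 1, 80.9% of cluster 2 and 69.2% of cluster 3. Cluster 2 was also the deepest, with a median of 739 UMIs per cell against 207 to 296 in the others, but its median of 139 features per cell was close to the others (130 to 139).

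Wide detection did not mean an even level across clusters. In over 50% of the cells of every cluster, 41 of the 100 features had a UMI. The ratio of the highest to the lowest cluster in UMIs per 10000 was 5.35 at the median, over 10 for 11 features and under 2 for 1, WNGS01123157.1571341_2_covsplit (1.18). Cluster 0 had the highest level of 40 features, cluster 1 of 39, cluster 2 of 8 and cluster 3 of 13.

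WNGS01001312.121569_1_covsplit had 148, 418, 3425 and 354 UMIs per 10000 in clusters 0 to 3, and yet a UMI in 98.5%, 100%, 99.6% and 100% of their cells. It was highest in cluster 2 and still found in nearly all cells outside it. WNGS01163813.2084876 had 65.4, 74.3, 646 and 200, and WNGS01163947.2108035_1_covsplit 76.8, 82.5, 880 and 213. WNGS01169498.2636754_1_covsplit had 1053, 335, 191 and 1871, so that its lowest level was in cluster 2 and its highest in cluster 3.

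The 2 largest ratios between clusters belonged to features highest in cluster 1. WNGS01164437.2152222_1_covsplit had 9.28, 121, 2.86 and 13.4 UMIs per 10000 in clusters 0 to 3, and WNGS01005997.436888_0_covsplit had 5.34, 55.3, 1.56 and 7.51. Both had a UMI in 12.7% to 33.3% of the cells of clusters 0, 2 and 3 and in 83.4% and 63.7% of those of cluster 1. WNGS01092210.1251734_1_covsplit, in contrast, had 14.7, 10.0, 227 and 81.6, and was found in 78.3% and 81.4% of the cells of clusters 2 and 3 and in 22.4% and 14.6% of those of clusters 0 and 1.

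The 2 descriptions met in the depth comparison. Of the 16 features higher in the deeper cells, 8 had their highest level in cluster 2, the deepest cluster, which are all of the features highest there, 6 in cluster 0 and 2 in cluster 1. Of the 24 that were lower in the deeper cells of all 6 libraries, 18 were highest in cluster 1, whose cells were the shallowest of Ctrl1, and 0 in cluster 2. The part of the makeup of cells in the change with depth was not tested.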

How the data were processed

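Hemocytes of 3 control and 3 *Dnmt1* KD animals were assayed. The authors counted UMIs with Cell Ranger, intronic reads included (7.0.0 in the file headers, 4.0.0 in the submitters' processing notes), and deposited whole-number counts without normalization for the barcodes called as cells. The annotation behind the identifiers was not analysed here. Cells with 100 to 2000 features were kept, and the mitochondrial filter was not applied, since features carry no names. Doublets were not removed. The members and the feature lists were chosen with earlier results of these data known.

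Counts were summed per animal, or per animal for cells above and below its median UMIs, and tested with edgeR 4.0.16 (quasi-likelihood, TMM, filterByExpr, Benjamini-Hochberg adjusted p under 0.05) in R 4.3.3, in place of a test over cells. DESeq2 1.42.0 was an alternative. The edgeR tests between groups and between deeper and shallower cells were also run on simulated data. DESeq2 and the interaction test were not. Each animal is 1 sample, so p-values between groups measure the spread between 3 and 3 animals. The depth and interaction tests had the library as a block, so their p-values rest on differences within libraries. In all these tests edgeR shares its estimate of variance over features, so the SE and p of 1 feature do not measure its own spread alone. With depth, the log2 ratio of WNGS01001312.121569_1_covsplit ran from 0.49 in KD1 to 3.16 in KD3, beside an SE of 0.29. Ctrl1 was clustered with Seurat 5.3.0 (9 dimensions, resolution 0.1). Cells were thinned at random with seed 1. The text names the 10 features of highest lowest percentage, 3 on each side of the limit, and up to 5 at each end of share, spread, observed to expected detection, KD change without overlap, depth change and ratio between clusters. Medians of 223 to 1258 UMIs per cell limit the detection of low features, and intervals cover counting error only.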

Additional observations from a re-analysis of the deposited data

How the results depend on the processing

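With each animal left out in turn, 85 to 100 of the 100 features stayed on the list, and 90 did with the mean of the percentages, 84 with thinned cells, 93 with at least 200 features per cell and 97 with all barcodes. Between KD and control animals 0 features were called, except without a filter on low counts (14, none of them a member), and the difference in share ran from -7.09 to 4.74 percentage points with each animal left out. On the TMM scale, the fitted values of WNGS01164858.2205159_1_covsplit, WNGS01103627.1344972_5_covsplit and WNGS01162923.2006708_20_covsplit changed sign without Ctrl1 (0.14, 0.48 and 0.50, against -1.85, -2.14 and -1.21 without KD3, the ends of their ranges with each animal left out), and the last also in the shallower cells alone (0.0097). The labels share replicate numbers, but nothing states that these pair the animals. Correlations of same-numbered deviations from the group means were -0.17, 0.09 and 0.10. With 3 animals per group these cannot decide it, and those of differently numbered animals ran from -0.38 to 0.38. With the replicate block 0 features were called, with 146 at an unadjusted p under 0.05 (edgeR), and the median of the members was -0.10.

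The depth results moved more. The difference in share was 10.6 percentage points between tertiles, -5.77 when split by features, -2.20 when split by UMIs outside the members and 6.65 to 8.30 with each animal left out. The main fit over all features called 264 features between deeper and shallower cells, against 123 when split by features, 954 with library size only, 169 with DESeq2 and 112 to 330 with each animal left out. Members called higher were 3 when split by features, 10 when split by UMIs outside the members, 10 with library size only, 31 without a filter and 15 to 32 with each animal left out, where 32 is without KD3. Members called lower were 6, 4, 19 and, with DESeq2, 6. Over all tested features the higher calls were 83 of 5961 when split by features and 149 of 5435 when split outside the members. They were 83 of 5377 with library size only, 274 of 36576 without a filter and 96 to 242 with each animal left out. The lower calls over all tested features were 40, 54, 871 and, with DESeq2, 71. Split by features, WNGS01163947.2108035_1_covsplit (-0.74), WNGS01163813.2084876 (-1.05) and WNGS01001312.121569_1_covsplit (-0.60) changed sign, and WNGS01092210.1251734_1_covsplit (0.04) and WNGS01005680.405565_0_covsplit (0.13) no longer passed. The share of higher among all calls was 60.6% with TMM and 8.70% with library size only. The cause was not tested. The low depth of KD2 and Ctrl1 limits the detection of low features most.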
